A study of Mus musculus with 51 samples.

Results

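Methylene diphenyl diisocyanate (MDI) is a reactive chemical used to make polyurethane, and exposure to it can lead to asthma. The question here was where its effect on lung gene expression differed between 2 inbred mouse strains. For each probe set, the effect of MDI in Balb/c lungs (MDI Exposed minus Control) was set against the effect in C57BL/6 lungs, and the difference of the 2 effects was tested. The comparison used 25 of the 51 arrays in the series, chosen by their labels: 3 Balb/c MDI Exposed, 3 Balb/c Control, 13 C57BL/6 MDI Exposed and 6 C57BL/6 Control lungs, none from mice given crofelemer. A positive difference means that the change with MDI was higher, or less negative, in Balb/c. All values are on the log2 scale, so that a difference of 1 is a 2-fold ratio of the fold changes.

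All mice were males aged 6 to 8 weeks, and the skin of every mouse, controls included, was exposed to 1% MDI in acetone on 2 occasions. MDI Exposed mice then received the reaction products of MDI with glutathione through the nose while under isoflurane, with doses on days 15 and 16 and again on days 19 and 20. Control mice received by the same route a control solution for which, per the labels, MDI and glutathione had each been reacted on their own. Lungs were lavaged, perfused and taken 48 h after the last exposure, so cells free in the airspaces are under-represented, and in whole lung fewer cells of a type and less RNA per cell cannot be told apart. Nothing in the labels says how the mice were caged or bred, and the p-values measure the spread between these arrays. With 3 arrays in each Balb/c group, array number limits the precision: the median SE was 0.22 for the Balb/c effect, 0.14 for the C57BL/6 effect and 0.26 for their difference. Groups this small can also fall fully apart by chance, and the share of all probe sets that did so is not given here. Statements below that groups did or did not overlap describe the values and are no test.

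As background, allergen or chemical exposure of a sensitized airway can start a type 2 response, in which interleukins 4, 5 and 13 act through the transcription factor Stat6 to turn airway epithelium towards mucus secretion, to activate macrophages alternatively and to draw in eosinophils. Balb/c mice are commonly used as a strain that leans towards type 2 immunity, and C57BL/6 mice as one that leans towards type 1. The strains also carry different versions of many immune genes, among them the major histocompatibility complex and natural killer receptors.

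The lung markers and 1 of the 2 measured strain reference genes, Klrb1c, fitted the labels. The lung markers Sftpc, Scgb1a1, Ager and Cdh5 were high on all 25 arrays. Klrb1c, the natural killer receptor gene whose product carries the NK1.1 antigen of C57BL/6, lay at 5.61 to 6.52 in Balb/c and 6.89 to 8.92 in C57BL/6. Pla2g2a, the other strain reference gene measured, was also lower in Balb/c, at 4.43 to 5.26 against 5.70 to 6.74 in C57BL/6. It was dim in both strains and gave no clear check. Array means were 7.37 to 7.40 in Balb/c and 7.48 to 7.51 in C57BL/6, array SDs were 3.34 to 3.43 in Balb/c and 3.06 to 3.29 in C57BL/6, and the strains look separately normalized. A shift shared by all arrays of a strain cancels in the difference of effects, and a difference in scale does not. One C57BL/6 MDI Exposed array, replicate 14, has a source name that reads control while its other labels say MDI. Without it 7 probe sets were called in place of 6. Adipose markers were highest on Balb/c Control 1, where Adipoq was 13.29 and Ucp1 12.48, and the mean of 12 adipose markers was 9.59 there, against 6.91 and 7.20 on the other Balb/c controls. They were also high on C57BL/6 Control 4, where Adipoq was 11.69 and Ucp1 10.36. The mean was 8.78 there, against 6.83 to 7.60 on the other C57BL/6 controls, and up to 8.03 on the C57BL/6 MDI Exposed arrays. Muscle markers varied too. Balb/c Control 1 was highest of all 25 arrays for some of them, such as Tnnt2 (15.07) and Myl4 (15.77), and not for others, such as Nppa (12.32). Among C57BL/6 controls Tnnt2 ran from 9.67 to 13.13. The part of muscle tissue in the differences was not tested.

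The effects of MDI were tested with limma over all 22206 probe sets. In Balb/c lungs 58 probe sets rose (0.261% of those tested) and 9 fell (0.0405%). In C57BL/6 lungs 1176 rose (5.3%) and 2049 fell (9.23%). That C57BL/6 split depended on the scaling: centring the arrays on their medians gave 1573 risen and 1609 fallen, and scaling them to the same spread gave 1486 and 794. The effect itself differed between the strains for 6 probe sets (0.027%), 3 higher and 3 lower in Balb/c (0.0135% each). At an unadjusted p under 0.05 there were 1083 higher (4.88%) and 654 lower (2.95%). The sign went with brightness. Of the 11103 brighter probe sets 56.2% had a positive difference, with 838 higher and 273 lower at that threshold. Of the 11103 dimmer ones 42% had a positive difference, with 245 higher and 381 lower. The lists below are set against the 49.1% positive of all probe sets and were not matched for brightness. Over all probe sets the median difference was -0.01, and 5% to 95% of probe sets lay between -0.49 and 0.57.

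**Figure D1:**
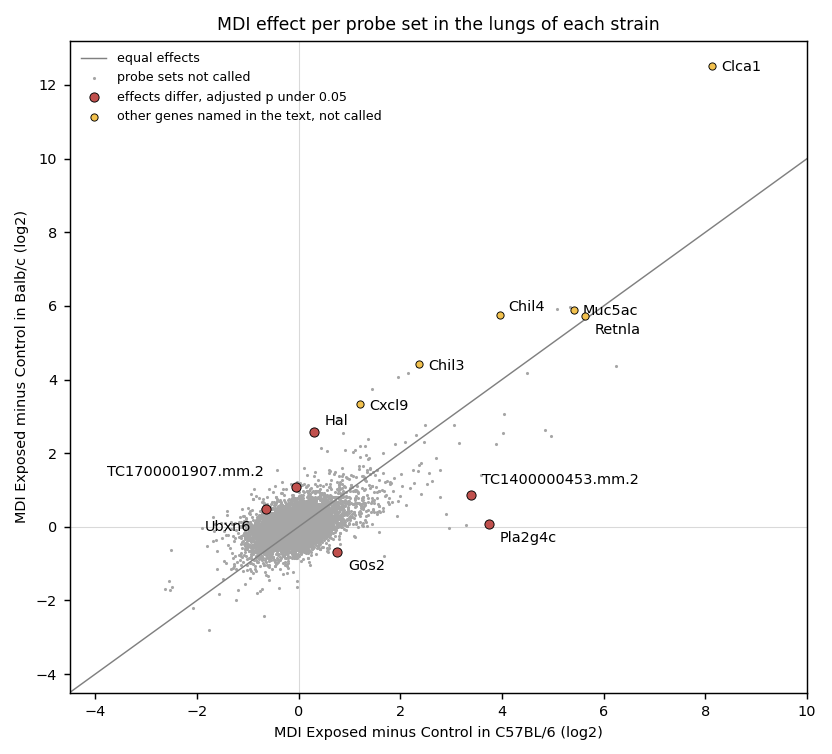
Each point is 1 probe set: the vertical axis is the MDI effect in Balb/c (MDI Exposed minus Control, log2) and the horizontal axis the MDI effect in C57BL/6, with the line marking equal effects. The 6 called probe sets are red, and 6 other genes named in the text are yellow. Hal lies above the line and Pla2g4c and TC1400000453.mm.2 well below it, while Muc5ac and Retnla, with differences of 0.48 and 0.08, lie near it.

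Hal encodes histidine ammonia-lyase, the enzyme that opens histidine breakdown by turning histidine into urocanate. Its values were 8.15, 9.02 and 8.41 in Balb/c MDI Exposed lungs and 6.41, 5.85 and 5.60 in Balb/c Control lungs. In C57BL/6 they ran over 3.92, 4.33 and 4.90 (lowest, median, highest) with MDI and 3.73, 4.08 and 4.22 in controls. Every exposed Balb/c lung was thus above every Balb/c control, while the C57BL/6 groups overlapped at the low end of the scale. The mean lay at percentile 64.2 of all probe sets in Balb/c MDI Exposed and 43.9 in Balb/c Control lungs, against 18.5 and 14.2 in the C57BL/6 MDI Exposed and Control lungs. The effect was 2.57 ± 0.24 (SE) in Balb/c, where Hal rose, and 0.30 ± 0.14 in C57BL/6 (limma, adjusted p = 0.168). Their difference was 2.28 (95% interval 1.72 to 2.83, limma, adjusted p = 1.76e-06).

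Hal was set beside the other genes that make, move, break down or sense histidine and histamine. Of 18 such genes measured, Hal included, 1 was called higher (0.0135% of all probe sets) and 0 lower, 10 had a positive and 8 a negative difference, and the median was 0.07. At an unadjusted p under 0.05 there were 3 of the 18, all higher (4.88% of all probe sets were higher). They were Hal itself and the lysosomal histidine and peptide transporters Slc15a4 and Slc15a3. Slc15a4 fell by 0.70 in C57BL/6 (limma, adjusted p = 0.00312) and had 0.39 ± 0.28 in Balb/c, a difference of 1.09 (95% interval 0.43 to 1.76, limma, adjusted p = 0.314). Slc15a3 had a difference of 1.19 (95% interval 0.24 to 2.15, limma, adjusted p = 0.499). Hrh4, the histamine receptor of blood cells, had -0.41 (95% interval -0.92 to 0.10).

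Pla2g4c encodes a cytosolic phospholipase A2, an enzyme that frees fatty acids from membrane lipids. It was at 3.47, 3.28 and 3.03 in Balb/c MDI Exposed lungs and 3.07, 2.92 and 3.57 in Balb/c Control lungs. In C57BL/6 the lowest, median and highest values were 6.43, 7.60 and 8.88 with MDI and 3.44, 3.79 and 4.24 in controls. All 13 exposed C57BL/6 lungs were above all 6 C57BL/6 controls, while the Balb/c groups overlapped. The Balb/c means were at percentiles 3.7 and 2.6 of all probe sets with MDI and in controls. All Balb/c values and all C57BL/6 control values were below the 20th percentile of their arrays, so the sizes that follow are set against background. Pla2g4c had an effect of 0.07 ± 0.44 in Balb/c and rose by 3.74 ± 0.27 in C57BL/6, a difference of -3.67 (95% interval -4.71 to -2.63, limma, adjusted p = 5e-05). With low values raised to the 20th percentile the Pla2g4c difference was -3.21 (adjusted p = 0.000156).

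Among 28 measured genes of eicosanoid synthesis and phospholipases, 0 were called higher and 1 lower, Pla2g4c itself (0.0135% of all probe sets each way). Of the 28 differences 17 were negative (50.9% of all probe sets), with a median of -0.19. Alox15, the lipoxygenase that makes 15-hydroxy fatty acids in eosinophils and macrophages, was at 7.72, 8.96 and 8.05 in Balb/c MDI Exposed and 6.44, 6.93 and 7.14 in Balb/c Control lungs. In C57BL/6 it ran over 9.27, 10.63 and 12.40 with MDI and 6.28, 7.19 and 7.96 in controls. The exposed lungs were above the controls in both strains, and the difference of the effects was -2.18 (95% interval -3.43 to -0.94, limma, adjusted p = 0.253). At an unadjusted p under 0.05, 3 members of this list were lower (2.95% of all probe sets) and 2 had the opposite sign (4.88%). Ltc4s, the synthase of leukotriene C4, differed by 0.82 (95% interval 0.29 to 1.35) and Pla2g2d, a secreted phospholipase of lymphoid tissue, by 1.13 (95% interval 0.38 to 1.87), with limma adjusted p-values of 0.359 and 0.368.

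G0s2 encodes an inhibitor of adipose triglyceride lipase, the enzyme that begins the breakdown of stored fat. It was at 6.55, 7.08 and 6.92 in Balb/c MDI Exposed lungs and 7.17, 7.48 and 7.92 in Balb/c Control lungs. In C57BL/6 the lowest, median and highest were 8.15, 8.97 and 9.50 with MDI and 8.06, 8.20 and 8.32 in controls. The Balb/c groups did not overlap, with the exposed lungs lower, and the C57BL/6 groups overlapped in their lowest exposed array. G0s2 had an effect of -0.67 ± 0.24 in Balb/c (limma, adjusted p = 0.414) and rose by 0.75 ± 0.14 in C57BL/6, so the 2 effects had opposite signs. The difference was -1.43 (95% interval -1.98 to -0.87, limma, adjusted p = 0.0238). Balb/c Control 1, the array with the highest adipose markers, had the lowest G0s2 of the 3 Balb/c controls, 7.17. The call was lost without Balb/c Control 3 (limma, adjusted p = 0.325), Balb/c MDI Exposed 1 (0.2) or 3 (0.0656), or C57BL/6 Control 3 (0.0505).

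Of 26 measured lipid storage and lipolysis genes, 0 were called higher and G0s2 was the 1 called lower (0.0135% of all probe sets each way). The median difference was 0.07. That median was -0.07 with arrays scaled to the same spread, 0.48 without Balb/c Control 1 and -0.04 without Balb/c Control 3. The mean of the list was 10.16 on Balb/c Control 1, the array with the highest adipose markers, against 9.15 and 9.04 on the other Balb/c controls. At an unadjusted p under 0.05 there were 5 higher and 1 lower (4.88% and 2.95% of all probe sets). Plin2, the coat protein of lipid droplets, had a difference of 0.69 (95% interval 0.08 to 1.30) and Angptl4, an inhibitor of lipoprotein lipase, 1.04 (95% interval 0.08 to 2.01). Lipe, hormone-sensitive lipase, fell by 0.96 in C57BL/6 (limma, adjusted p = 0.00426) and had 0.02 ± 0.40 in Balb/c, a difference of 0.98 (95% interval 0.04 to 1.92). Lipe, which is also an adipose marker, was at 12.48 on Balb/c Control 1 and 11.06 and 10.51 on the other Balb/c controls. On C57BL/6 Control 4, the C57BL/6 control with the highest adipose markers, Lipe was at 11.36, against 10.17 to 10.98 on the others. Its difference was 1.54 without Balb/c Control 1 and 0.56 without Balb/c Control 3. The part of adipose tissue in it was not tested. None of these 3 differences passed the adjusted threshold (limma, adjusted p = 0.553, 0.587 and 0.604).

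Ubxn6 encodes a cofactor of the ATPase p97 (Vcp), which extracts ubiquitinated proteins for degradation. It was at 10.24, 10.18 and 10.22 in Balb/c MDI Exposed lungs and 9.75, 9.78 and 9.66 in Balb/c Control lungs. C57BL/6 values (lowest, median, highest) were 9.30, 9.88 and 10.14 with MDI and 10.15, 10.41 and 10.82 in controls. Exposed lungs were thus all above controls in Balb/c and all below controls in C57BL/6. The effect was 0.48 ± 0.19 in Balb/c (limma, adjusted p = 0.586), Ubxn6 fell by 0.65 ± 0.12 in C57BL/6, and the difference was 1.13 (95% interval 0.68 to 1.58, limma, adjusted p = 0.0241). The call was lost without any 1 of the 6 Balb/c arrays or without C57BL/6 Control 3 or 4, with adjusted p-values up to 0.225.

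Over the 19 measured p97 cofactor genes, Ubxn6 was the 1 called higher and 0 were called lower (0.0135% of all probe sets each way). The list was chosen with earlier results of these data known, so that 1 is no support for the list. The same holds for the lists set beside Hal, Pla2g4c and G0s2. Of the p97 cofactor genes 11 were positive, and the median was 0.03, a sign that turned under 2 of the scalings. At an unadjusted p under 0.05, 3 were higher (4.88% of all probe sets). Besides Ubxn6 these were Ubxn10, a cofactor linked to cilia, with 0.96 (95% interval 0.16 to 1.76), and Nploc4, the p97 adaptor Npl4, with 0.40 (95% interval 0.03 to 0.77). Vcp itself fell by 0.47 in C57BL/6 (limma, adjusted p = 0.00651) and had -0.05 ± 0.20 in Balb/c, a difference of 0.42 (95% interval -0.06 to 0.90, limma, adjusted p = 0.703).

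The array's annotation names no gene for the remaining 2 called probe sets. TC1700001907.mm.2 was at 15.97, 15.99 and 15.99 in Balb/c MDI Exposed and 14.98, 14.77 and 14.93 in Balb/c Control lungs, percentiles 99.0 and 97.7 of all probe sets. All 19 C57BL/6 arrays were between 3.16 and 3.95, below the 20th percentile of their arrays. The probe set rose by 1.09 ± 0.17 in Balb/c and had -0.05 ± 0.10 in C57BL/6, a difference of 1.14 (95% interval 0.74 to 1.53, limma, adjusted p = 0.00336). TC1400000453.mm.2 was at 7.80, 8.30 and 8.18 in Balb/c MDI Exposed and 7.86, 6.55 and 7.24 in Balb/c Control lungs. Its C57BL/6 values were 9.14, 10.63 and 11.85 (lowest, median, highest) with MDI and 6.26, 7.29 and 7.55 in controls. The Balb/c groups overlapped and the C57BL/6 groups did not. This probe set had 0.88 ± 0.42 in Balb/c and rose by 3.39 ± 0.26 in C57BL/6, a difference of -2.51 (95% interval -3.50 to -1.51, limma, adjusted p = 0.0241). Its call was lost without any of 6 single arrays: Balb/c Control 1 or 3, any Balb/c MDI Exposed array, or C57BL/6 Control 3, with adjusted p-values up to 0.187.

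Of these 6 probe sets, Hal and Pla2g4c were also called when the 25 arrays were fitted alone. The other 4 were not: the adjusted p was 0.0925 for TC1700001907.mm.2, 0.141 for G0s2, 0.16 for TC1400000453.mm.2 and 0.107 for Ubxn6 (limma), with differences of the same sign.

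**Figure D2:**
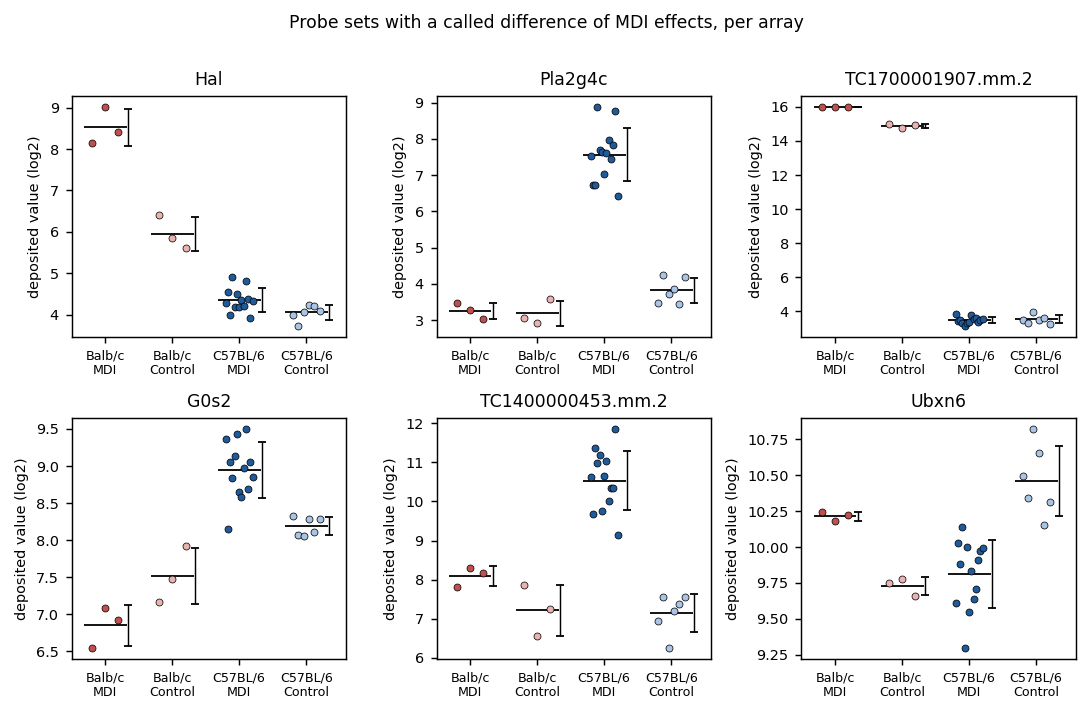
Deposited log2 values of the 6 called probe sets, 1 point per array, with the group mean (line) and SD (bar) for Balb/c MDI Exposed (n = 3), Balb/c Control (n = 3), C57BL/6 MDI Exposed (n = 13) and C57BL/6 Control (n = 6). Hal, TC1700001907.mm.2 and G0s2 separate the Balb/c groups, G0s2 with the exposed lungs lower. Pla2g4c and TC1400000453.mm.2 separate the C57BL/6 groups, and Ubxn6 separates both in opposite directions.

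The C57BL/6 effects of these probe sets can be set beside the MDI effects in other mice of C57BL/6 background in the series. Pla2g4c rose by 3.77 in B-cell deficient mice and had 1.12 in crofelemer-treated C57BL/6 mice (limma, adjusted p = 0.388). TC1400000453.mm.2 rose by 3.33 in B-cell deficient mice and had 0.51 with crofelemer. Hal had 0.02 in B-cell deficient mice and 0.09 with crofelemer, against 2.57 in Balb/c and 0.30 in C57BL/6. G0s2 rose by 0.43 and Ubxn6 fell by 0.29 in B-cell deficient mice, the same signs as in C57BL/6. TC1700001907.mm.2 fell by 0.49 in B-cell deficient mice (limma, adjusted p = 0.000256) and had 0.11 with crofelemer. It had -0.05 in C57BL/6, where all its values were at background. All B-cell deficient control arrays came from a single lot (a block of consecutive records), and part of the B-cell deficient MDI Exposed arrays from another. Lot and MDI therefore cannot be fully told apart in the B-cell deficient effects. Differences among these sets of mice were not tested here.

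The C57BL/6 MDI Exposed arrays varied more than the others: the median SD within a group was 0.19 for Balb/c MDI Exposed, 0.18 for Balb/c Control, 0.29 for C57BL/6 MDI Exposed and 0.23 for C57BL/6 Control. When limma weighted each array by its own spread, with weights from 0.253 to 1.946 among the C57BL/6 MDI Exposed arrays, 143 probe sets were called higher in Balb/c (0.644%) and 40 lower (0.18%). By the sign of each effect, called or not, 125 of the 143 went up in Balb/c and down in C57BL/6, 10 went up in both and 8 down in both. Of the 40, 33 went down in Balb/c and up in C57BL/6, 6 up in both and 1 down in both. Genes with a proper name that were called in at least 2 of 3 alternative treatments of the spread (the 25 arrays alone, array weights, and weights by group), but not with equal weights over all arrays, numbered 42 higher and 13 lower in Balb/c. The 25 arrays alone called only Hal and Pla2g4c, so all of these genes were called by the weighted fits and none by the 25 arrays alone. The 10 most positive and 10 most negative of them are described here, and their adjusted p-values for the difference at equal weights ran from 0.0516 to 0.253.

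The 10 most positive differences included Chil3 and Cxcl9. Chil3, a chitinase-like protein of alternatively activated macrophages, was at 17.62, 17.37 and 16.77 in Balb/c MDI Exposed and 12.87, 12.84 and 12.81 in Balb/c Control lungs. The C57BL/6 lungs ran over 17.82, 18.74 and 19.27 with MDI and 15.53, 16.14 and 17.70 in controls. It rose in both strains without overlap, by 4.41 ± 0.37 in Balb/c and 2.37 ± 0.22 in C57BL/6 (difference 95% interval 1.18 to 2.92, limma, adjusted p = 0.0516). The exposed groups of both strains lay at percentile 99.7 or above and the control groups at 92.5 in Balb/c and 99.3 in C57BL/6. Cxcl9, an interferon-gamma-induced chemokine for T cells, was at 8.01, 8.14 and 7.55 in Balb/c MDI Exposed and 5.02, 4.37 and 4.33 in Balb/c Control lungs. Among C57BL/6 lungs it spanned 5.13, 6.48 and 7.48 with MDI and 4.71, 5.17 and 5.62 in controls. It rose in both strains, without overlap in Balb/c and with overlap in C57BL/6, and the effects of 3.33 ± 0.43 and 1.21 ± 0.26 differed by 2.11 (95% interval 1.10 to 3.13, limma, adjusted p = 0.12). Gpnmb, a glycoprotein of lipid-laden macrophages, rose by 2.15 ± 0.41 in Balb/c and had 0.44 ± 0.25 in C57BL/6, a difference of 1.71 (95% interval 0.74 to 2.69). Hcar2, the receptor for niacin and hydroxybutyrate on myeloid cells, had 0.84 ± 0.30 in Balb/c and fell by 0.84 ± 0.18 in C57BL/6, a difference of 1.68 (95% interval 0.97 to 2.39, limma, adjusted p = 0.0516). The IgG receptor gene Fcgr4 fell by 0.87 in C57BL/6 and had 1.04 ± 0.40 in Balb/c, and Lrrc32, whose product displays latent TGF-beta, fell by 1.41 in C57BL/6 and had 0.44 ± 0.39 in Balb/c. Their differences were 1.91 (95% interval 0.96 to 2.85) and 1.85 (95% interval 0.94 to 2.77). The class I histocompatibility gene H2-Q5, the focal adhesion gene Lims2, the SOCS-box gene Spsb1 and the actin regulator Eps8l2 completed the 10, with differences of 1.62, 1.56, 1.56 and 1.45.

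Among the 10 most negative differences, Gapt, an adaptor of B cells and myeloid cells, was at 5.29, 6.48 and 5.64 in Balb/c MDI Exposed and 5.46, 5.38 and 5.55 in Balb/c Control lungs. In C57BL/6 it ran over 9.01, 9.98 and 11.50 with MDI and 6.01, 7.18 and 8.06 in controls. The C57BL/6 groups did not overlap and the Balb/c groups did. Gapt had 0.34 ± 0.59 in Balb/c and rose by 2.91 ± 0.36 in C57BL/6, a difference of -2.57 (95% interval -3.95 to -1.19, limma, adjusted p = 0.214). Scin, the actin-severing protein scinderin, rose in both strains without overlap, by 1.54 ± 0.30 in Balb/c and 2.77 ± 0.18 in C57BL/6 (difference 95% interval -1.93 to -0.54). Rbm3, the cold-inducible RNA-binding protein, had -0.28 ± 0.27 in Balb/c and rose by 1.10 ± 0.16 in C57BL/6, where exposed lungs were all above controls. Neto2, an auxiliary subunit of kainate receptors, and Arsj, an arylsulfatase, fell in Balb/c by 1.04 ± 0.24 and 0.96 ± 0.22 (limma, adjusted p = 0.0369 and 0.0336 for the Balb/c effects) and had 0.22 and 0.21 in C57BL/6. All exposed Balb/c lungs were below all Balb/c controls for both genes, which groups this small can show by chance. Cdh19, Fam111a, Armcx4, V1ra8 and Ppcs completed the 10, with differences from -1.26 to -0.88. V1ra8 was dim in all groups, with no mean above percentile 15.3.

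**Figure D3:**
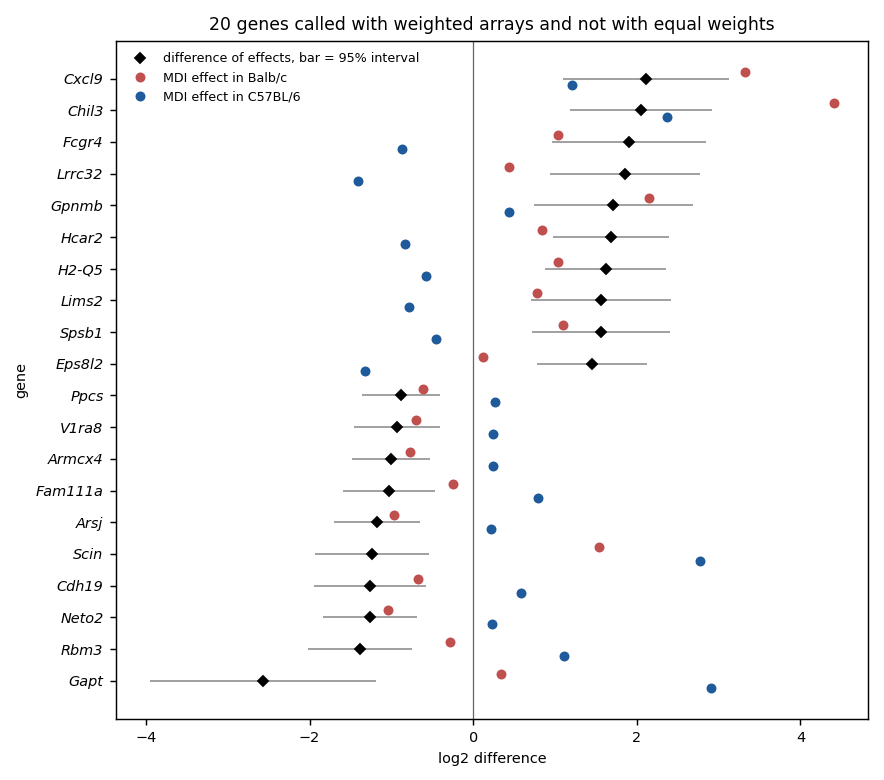
The 20 genes called with weighted arrays and not with equal weights. For each gene (vertical axis) the red and blue points are the MDI effects in Balb/c and C57BL/6 (log2) and the black diamond is their difference with its 95% interval. In 7 of the 10 upper genes a positive Balb/c effect faces a negative C57BL/6 effect, while Cxcl9, Chil3 and Gpnmb are positive in both strains. None of those 7 Balb/c effects was called (limma, adjusted p = 0.218 to 0.999), nor was the C57BL/6 effect of Spsb1 (0.164).

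Of 9 airway genes, Clca1, Muc5ac, Muc5b, Chil3, Chil4 and Retnla rose in both strains, Ccl17 and Arg1 were called in C57BL/6 and not in Balb/c, and Cftr was called in neither. None of their strain differences was called at equal weights. Clca1, a secreted regulator of mucus and chloride currents, was at 16.28, 16.06 and 16.03 in Balb/c MDI Exposed and 5.13, 2.29 and 3.39 in Balb/c Control lungs. C57BL/6 values (lowest, median, highest) were 16.41, 17.27 and 19.00 with MDI and 6.47, 9.45 and 13.42 in controls. The exposed lungs were above the controls in both strains without overlap, and the C57BL/6 controls spread widely, with replicate 2 highest. The controls thus lay at percentile 10.3 in Balb/c and 71.5 in C57BL/6, and the exposed lungs at percentiles 99.1 and 99.7. In Balb/c controls 2 of the 3 values were below the 20th percentile of their array (4.02 and 4.11), so the size of the Clca1 difference rests on background values: 4.40 as measured (interval 1.84 to 6.95, limma, adjusted p = 0.272) and 3.58 with low values raised to that percentile. The Clca1 difference was called with array weights (adjusted p = 0.0453) and among the arrays of lot 1, a block of consecutive records (5.65, adjusted p = 0.0144).

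Muc5ac, the mucin of goblet cells, was at 10.84, 11.95 and 10.30 in Balb/c MDI Exposed and 4.97, 4.52 and 5.93 in Balb/c Control lungs. The C57BL/6 lungs ran over 9.13, 11.57 and 12.50 with MDI and 5.10, 5.74 and 7.04 in controls. The groups were apart in both strains by similar amounts, 5.89 ± 0.64 in Balb/c and 5.41 ± 0.39 in C57BL/6, and the interval of the difference, -1.03 to 1.99, held 0. Muc5b, the mucin of submucosal and airway secretory cells, was at 12.26, 12.39 and 12.04 in Balb/c MDI Exposed and 9.00, 7.63 and 7.82 in Balb/c Control lungs. Among C57BL/6 lungs it spanned 11.08, 12.63 and 13.31 with MDI and 8.80, 10.33 and 12.07 in controls. It rose in both strains, by 4.08 ± 0.60 in Balb/c and 1.95 ± 0.36 in C57BL/6, with overlap in C57BL/6 alone (interval of the difference 0.71 to 3.54).

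Retnla, a resistin-like protein of alternatively activated macrophages and epithelium, rose by 5.72 ± 0.64 in Balb/c and 5.63 ± 0.39 in C57BL/6, and Chil4, a chitinase-like protein of airway epithelium, by 5.76 ± 0.53 and 3.95 ± 0.32. The intervals of their differences were -1.42 to 1.59 and 0.57 to 3.04. The T-cell chemokine Ccl17 had 1.86 ± 0.69 in Balb/c (limma, adjusted p = 0.486) and rose by 2.70 ± 0.41 in C57BL/6 (interval -2.45 to 0.77). Arg1, the arginase of alternatively activated macrophages, was at 5.22, 6.56 and 5.21 in Balb/c MDI Exposed and 5.22, 4.81 and 4.52 in Balb/c Control lungs. In C57BL/6 it ran over 6.85, 8.10 and 11.08 with MDI and 4.77, 5.77 and 6.04 in controls. The Balb/c groups overlapped and the C57BL/6 groups did not, and the interval of the difference ran from -3.70 to -0.23. Cftr, the epithelial chloride channel, had 0.09 ± 0.29 in Balb/c and 0.16 ± 0.18 in C57BL/6, with neither effect called.

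Over 24 measured mucous and goblet cell genes, 9 rose in Balb/c and 13 in C57BL/6 and 0 fell in either strain. Over all probe sets 0.261% rose and 0.0405% fell in Balb/c, and 5.3% rose and 9.23% fell in C57BL/6. The counts of each list below stand beside these shares. Their median difference was 0.12, with 14 positive and 10 negative (49.1% of all probe sets were positive), and the median turned to -0.04 when arrays were scaled to the same spread. Tff2, a trefoil peptide of mucus, rose by 4.36 ± 0.61 in Balb/c and 2.32 ± 0.37 in C57BL/6 (interval of the difference 0.61 to 3.47). Bpifb1, a secreted airway defence protein, rose by 3.75 ± 0.89 in Balb/c and had 1.44 ± 0.54 in C57BL/6 (interval 0.22 to 4.40). At an unadjusted p under 0.05 there were 4 higher and 1 lower (4.88% and 2.95% of all probe sets). Among 11 chitinases, chitinase-like and resistin-like genes, 4 rose in Balb/c and 8 in C57BL/6, with 5 positive and 6 negative differences. Chia1, an acidic chitinase, had the opposite sign to Chil3 and Chil4: it rose by 2.62 ± 0.61 in Balb/c and 4.85 ± 0.37 in C57BL/6, a difference of -2.23 (interval -3.66 to -0.81, limma, adjusted p = 0.348).

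Eosinophil genes had a larger MDI effect in C57BL/6 for most members. Of 15 measured, 13 had a negative difference and 2 a positive one, against 50.9% and 49.1% of all probe sets. Of the dimmer probe sets 42% were positive. The median difference of the eosinophil list was -0.996. In Balb/c 2 rose (0.261% of all probe sets did) and in C57BL/6 12 (5.3%). The median effects were 0.20 and 1.20, and no single difference was called. Ccl24, the eosinophil chemoattractant eotaxin-2, was at 4.85, 4.80 and 4.90 in Balb/c MDI Exposed and 5.00, 4.59 and 4.82 in Balb/c Control lungs. C57BL/6 values (lowest, median, highest) were 4.97, 7.20 and 11.01 with MDI and 3.89, 4.13 and 4.75 in controls. The Balb/c groups overlapped, and every exposed C57BL/6 lung was above every C57BL/6 control. The difference was -3.24 (interval -5.29 to -1.20, limma, adjusted p = 0.334). Ccl11, eotaxin-1, rose in both strains without overlap, by 2.56 ± 0.61 in Balb/c and 4.02 ± 0.37 in C57BL/6 (interval -2.89 to -0.03). Rnase2b, an eosinophil ribonuclease with close copies in the mouse genome that probes can share, had 0.04 ± 0.43 in Balb/c and rose by 1.25 ± 0.26 in C57BL/6. Its means lay at percentiles 8.5 and 7.6 in Balb/c MDI Exposed and Control lungs and 9.5 in C57BL/6 controls, so these sizes are set against background. Adgre4, a receptor of myeloid cells, had -0.66 ± 0.38 and 0.56 ± 0.23, neither called. With each alternative and each array left out in turn the median of the list stayed between -1.17 and -0.71.

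Type 2 cytokines, alarmins and their receptors were mostly dim. Of 20 measured, 6 rose and 2 fell in C57BL/6 (5.3% and 9.23% of all probe sets did) and 0 changed in Balb/c, where few probe sets did (0.261% rose and 0.0405% fell), and 14 differences were negative with a median of -0.21, which turned to 0.18 with dim probe sets left out. Il33, an epithelial alarmin, was at 13.43, 13.54 and 13.39 in Balb/c MDI Exposed and 12.44, 12.77 and 12.77 in Balb/c Control lungs. It ran over 13.21, 14.60 and 15.52 in C57BL/6 with MDI and 11.88, 12.89 and 13.25 in controls. Exposed lungs were above controls without overlap in Balb/c and with overlap in C57BL/6, where Il33 rose by 1.78 ± 0.25; the Balb/c effect was 0.79 ± 0.41 (interval of the difference -1.96 to -0.01). Il4 had 0.12 ± 0.37 in Balb/c and rose by 1.20 ± 0.22 in C57BL/6 (interval -1.94 to -0.22). Stat6, the transcription factor downstream of interleukins 4 and 13, went the other way: it had 0.06 ± 0.17 in Balb/c and fell by 0.63 ± 0.11 in C57BL/6, where all exposed lungs were below all controls (difference 0.69, interval 0.28 to 1.10, limma, adjusted p = 0.299).

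Interferon-stimulated genes had a positive difference in 26 of 26 measured members, against 49.1% of all probe sets and 56.2% of the brighter ones. The median difference over the 26 was 0.48. In Balb/c 0 changed and the median effect was 0.06. Few of all probe sets changed there (0.261% rose and 0.0405% fell), so that 0 is no result about these genes. In C57BL/6 0 rose and 15 fell (5.3% and 9.23% of all probe sets did), with a median of -0.42. Irf7, a transcription factor that amplifies type I interferon, was at 8.13, 8.12 and 8.18 in Balb/c MDI Exposed and 8.19, 8.29 and 7.70 in Balb/c Control lungs. The C57BL/6 lungs ran over 5.17, 6.49 and 7.30 with MDI and 6.79, 7.91 and 9.72 in controls. The Balb/c lungs barely differed, and the C57BL/6 groups overlapped at their edges, with Control 3 far above the other controls. The difference was 1.74 (interval 0.59 to 2.88, limma, adjusted p = 0.366). Usp18, which restrains interferon signalling, differed by 0.81 (interval 0.28 to 1.34) and the RNA sensor gene Oas2 by 1.17 (interval 0.36 to 1.97), and both fell in C57BL/6. Control 3 was the highest C57BL/6 control for these 3 genes and for Ifit3, an antiviral tetratricopeptide protein (difference 0.90, interval 0.18 to 1.61), and its mean over the list was 9.30, against 8.30 to 8.68 in the other 5 C57BL/6 controls. Without that array the list's median difference was 0.34. Of the 26, 10 passed an unadjusted p under 0.05, all higher (4.88% of all probe sets were higher). An adjusted one was passed by 0, with equal weights or with array weights (0.0135% and 0.644% of all probe sets were higher).

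Proliferation genes moved the opposite way. Of 23 measured, 22 had a negative difference and 1 a positive one, with a median of -0.62. The median effect was 0.61 in Balb/c, with 0 called, and 1.23 in C57BL/6, where 21 rose. Over all probe sets 0.261% rose in Balb/c and 5.3% in C57BL/6, so 0 called in Balb/c is no result about these genes. Kif11, a mitotic motor, was at 8.81, 8.57 and 8.12 in Balb/c MDI Exposed and 8.27, 7.92 and 8.14 in Balb/c Control lungs. Among C57BL/6 lungs it spanned 8.81, 9.20 and 10.13 with MDI and 7.11, 7.67 and 9.17 in controls. Exposed lungs were mostly above controls with overlap in both strains, and the highest C57BL/6 control was replicate 2, as it was for Clca1. The difference was -1.21 (interval -2.20 to -0.21, limma, adjusted p = 0.524). Mki67, the Ki-67 antigen of dividing cells, had 1.06 ± 0.51 in Balb/c and rose by 2.19 ± 0.31 in C57BL/6 (interval -2.33 to 0.06). The replication helicase subunit Mcm6 and the cyclin gene Ccna2 had differences of -0.87 (interval -1.59 to -0.15) and -1.14 (interval -2.42 to 0.14).

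Neutrophil genes had the largest median difference of the lists described, 1.08, with 14 positive and 5 negative of 19. In Balb/c 0 changed, and in C57BL/6 6 fell and 2 rose, with median effects of 0.05 and -0.92. Over all probe sets 9.23% fell and 5.3% rose in C57BL/6. In Balb/c 0.0405% fell and 0.261% rose, so 0 changed there is no result about these genes. The list varied widely among controls: its mean was 8.23 to 8.50 in Balb/c MDI Exposed and 7.62 to 9.08 in Balb/c Control lungs, and 7.49 to 9.96 in C57BL/6 MDI Exposed and 8.20 to 10.17 in C57BL/6 Control lungs. Leaving out single arrays moved the median from 0.59 (without Balb/c Control 3) to 1.54 (without Balb/c Control 2). Trem1, an activating receptor of neutrophils and monocytes, had 0.10 ± 0.39 in Balb/c and fell by 1.24 ± 0.23 in C57BL/6, a difference of 1.34 (interval 0.43 to 2.25, limma, adjusted p = 0.386). Csf3r, the receptor for the neutrophil growth factor G-CSF, had -0.12 ± 0.66 in Balb/c and fell by 1.65 ± 0.40 in C57BL/6 (interval -0.01 to 3.08). The chemokine receptor Cxcr2 behaved similarly, with 0.26 ± 0.61 in Balb/c and -1.15 ± 0.37 (a called fall) in C57BL/6, and Cxcr1 differed by 1.45 (interval 0.42 to 2.48).

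Glucocorticoid-responsive genes had 18 positive and 2 negative differences of 20, with a median of 0.61. In Balb/c 2 rose and 0 fell (0.261% and 0.0405% of all probe sets did), and in C57BL/6 1 rose and 8 fell (5.3% and 9.23%). Fkbp5, a chaperone of the glucocorticoid receptor, was at 11.59, 11.82 and 11.35 in Balb/c MDI Exposed and 10.60, 8.32 and 8.20 in Balb/c Control lungs. In C57BL/6 it ran over 10.36, 12.02 and 13.57 with MDI and 10.20, 11.40 and 12.23 in controls. Balb/c Control 1 was nearer to the exposed lungs than to the other 2 controls, and the C57BL/6 groups overlapped. Fkbp5 rose by 2.55 ± 0.62 in Balb/c (limma, adjusted p = 0.0467) and had 0.87 ± 0.37 in C57BL/6 (interval of the difference 0.22 to 3.12). Zbtb16, a transcription factor induced by the same receptor, rose by 2.96 ± 0.71 in Balb/c and had 0.78 ± 0.43 in C57BL/6 (interval 0.50 to 3.85). Cdkn1a, the cell cycle inhibitor p21, had 0.50 ± 0.36 in Balb/c and fell by 1.00 ± 0.22 in C57BL/6 (interval 0.66 to 2.34). Without Balb/c Control 1, the array with the highest adipose markers, the median of the list was 0.90. The part of adipose tissue in these differences was not tested.

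**Figure D4:**
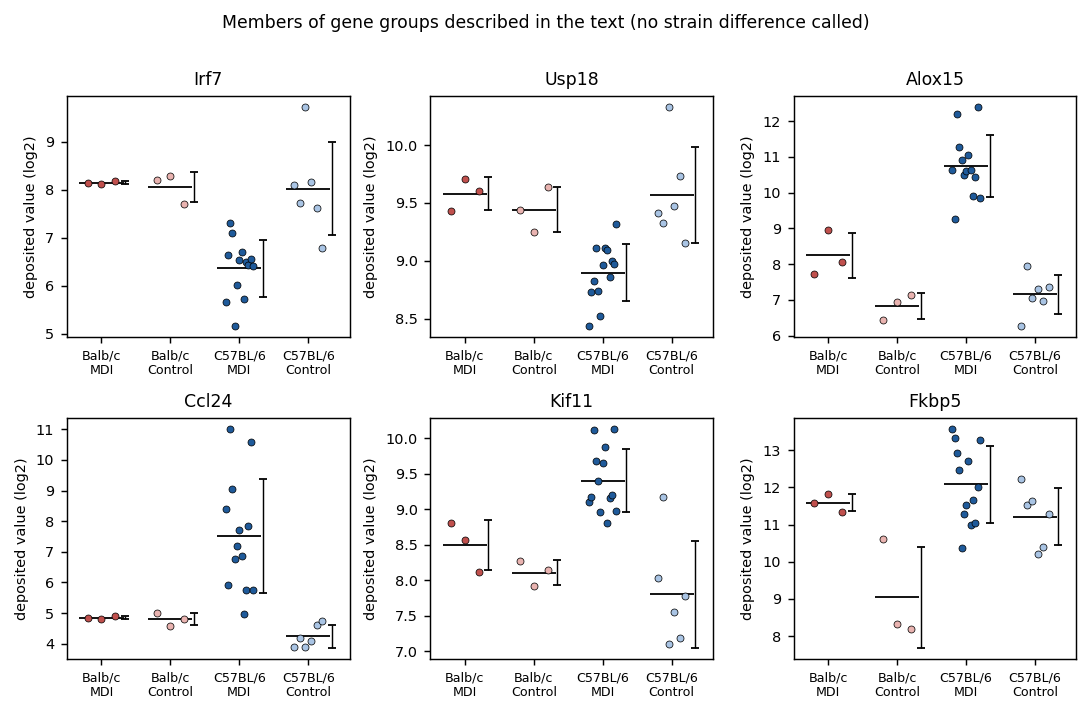
Deposited log2 values of 6 members of the interferon (Irf7, Usp18), eosinophil (Alox15, Ccl24), proliferation (Kif11) and glucocorticoid (Fkbp5) lists, 1 point per array, with group means (lines) and SDs (bars); groups as in the plot of called probe sets. The Balb/c groups lie close for Irf7 and Ccl24 while the C57BL/6 groups are further apart, and for Fkbp5 the Balb/c groups are apart while the C57BL/6 groups overlap.

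Macrophage, complement and MHC class II genes had mostly positive differences. Their counts stand beside 0.261% of all probe sets risen in Balb/c, and 5.3% risen and 9.23% fallen in C57BL/6. Of 18 interstitial macrophage and monocyte genes, 4 rose in Balb/c and 9 in C57BL/6, 15 differences were positive, and the median was 0.40. C1qa and C1qc, subunits of the complement recognition protein C1q made by tissue macrophages, rose by 2.18 in Balb/c each, and by 1.30 and 1.20 in C57BL/6. The intervals of their differences, 0.02 to 1.75 and 0.01 to 1.96, ended close to 0. Of 17 complement genes 13 were positive, with a median of 0.25 that turned to -0.01 with arrays scaled to the same spread. C5ar1, the receptor for C5a, had -0.25 ± 0.28 in Balb/c and fell by 1.02 ± 0.17 in C57BL/6. Of 14 genes of MHC class II presentation, 1 rose in Balb/c and 7 in C57BL/6, and 11 differences were positive with a median of 0.36. Cd80, a T-cell costimulator, had 1.03 ± 0.40 in Balb/c and -0.31 ± 0.24 in C57BL/6, a difference of 1.34 (interval 0.39 to 2.29). Alternatively activated macrophage genes were split, 9 positive and 11 negative of 20, with 5 risen in Balb/c, and 14 risen and 2 fallen in C57BL/6. Tgm2, a transglutaminase of such macrophages, was on the positive side with 1.22 (interval 0.44 to 2.00).

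Chemokines varied by family, and their counts stand beside the same shares of all probe sets. Of 20 CC chemokines, 6 rose in Balb/c and 11 in C57BL/6 with a median difference of 0.14, which turned to -0.04 with arrays scaled to the same spread. Ccl12, a monocyte attractant, rose in both strains without overlap, by 2.40 ± 0.31 in Balb/c and 1.37 ± 0.19 in C57BL/6 (interval of the difference 0.30 to 1.75). Ccl22, a ligand of the same receptor as Ccl17, had a positive difference of 1.17 (interval 0.05 to 2.29), against -0.84 for Ccl17. Of 17 CXC and other chemokines, 1 rose in Balb/c, 2 rose and 3 fell in C57BL/6, and 12 differences were positive with a median of 0.41. Cxcl14, a chemokine of epithelium, was at 8.13, 8.47 and 8.33 in Balb/c MDI Exposed and 8.05, 8.54 and 8.54 in Balb/c Control lungs. It ran over 8.55, 9.48 and 10.02 in C57BL/6 with MDI and 9.85, 10.68 and 11.41 in controls. The Balb/c lungs did not separate, and in C57BL/6 it fell by 1.32 ± 0.19, a difference of 1.26 (interval 0.51 to 2.00, limma, adjusted p = 0.299).

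For lists of epithelial, endothelial, metabolic and matrix genes the counts stand beside the shares of all probe sets. In Balb/c 0.0405% fell and 0.261% rose, and in C57BL/6 9.23% fell and 5.3% rose. A count of 0 fallen or changed in Balb/c is therefore no result about these genes. Of 24 cytochrome P450 and oxidase genes, 0 changed in Balb/c and 11 fell in C57BL/6, 18 differences were positive, and the median was 0.30. Cyp2a5 and Cyp2a4, near-identical xenobiotic-metabolizing enzymes whose signals are hard to separate, fell by 2.51 ± 0.45 and 1.69 ± 0.28 in C57BL/6, against -0.62 ± 0.74 and -0.39 ± 0.47 in Balb/c. Of 14 alveolar type 1 cell genes, 8 fell in C57BL/6 and 0 in Balb/c, and of 24 endothelial genes, 11 fell and 1 rose in C57BL/6 and 0 changed in Balb/c. Their median differences, 0.27 and 0.16, turned to -0.08 and -0.12 with arrays scaled to the same spread, so the direction of these shifts depended on the scale of the strains' arrays. Aplnr, the apelin receptor of endothelium, fell by 0.98 ± 0.15 in C57BL/6 and had -0.49 ± 0.25 in Balb/c (interval of the difference -0.10 to 1.08). Of 22 immediate early and heat shock genes 18 were positive with a median of 0.24, which turned to -0.03 without Balb/c Control 1. Nr4a1, an orphan nuclear receptor of that group, fell in both strains, with effects of -2.79 ± 0.52 in Balb/c and -1.75 ± 0.31 in C57BL/6 (interval -2.26 to 0.18). Of 21 fibroblast, collagen and matrix genes, 8 rose and 2 fell in C57BL/6 and 0 changed in Balb/c, and 13 differences were negative with a median of -0.34. Postn, the matrix protein periostin induced by interleukin 13, had -0.15 ± 0.27 in Balb/c and rose by 0.71 ± 0.16 in C57BL/6, a difference of -0.86 (interval -1.49 to -0.22, limma, adjusted p = 0.446).

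**Figure D5:**
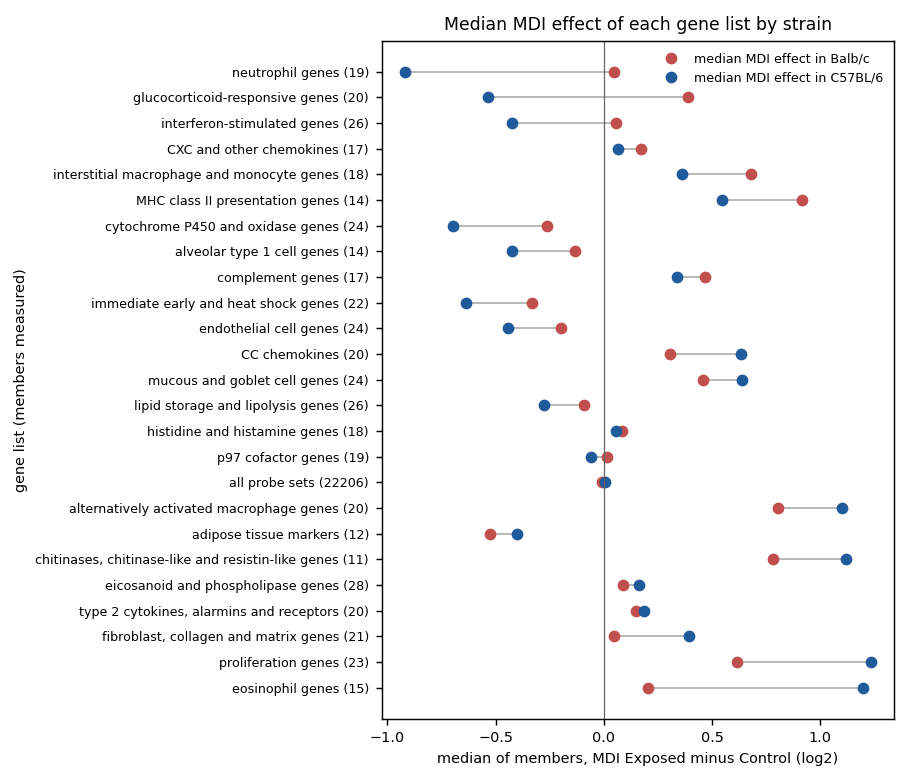
Median MDI effect (MDI Exposed minus Control, log2) of the members of each gene list described, with Balb/c in red and C57BL/6 in blue, and all probe sets for scale. Lists are ordered by the median of their members' differences, from neutrophil genes at the top to eosinophil genes at the bottom, and the number of members measured is in brackets.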

How the data were processed

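Lung RNA of 51 mice was measured on whole-transcript microarrays. The deposited table holds 1 log2 value per probe set and array, made by the authors with Transcriptome Analysis Console, per the submitters' processing notes. Neither the version of that program nor the normalization was stated there, and the log base was taken from the range of the values. Array depth has no count, so the number of arrays limits the precision.

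Groups came from the labels, and 2 arrays with contradictory labels entered no comparison. A model of 8 group means was fitted over 49 arrays (41 residual degrees of freedom) with limma 3.58.1 in R 4.3.3 (lmFit, then eBayes with an intensity trend). The difference of the Balb/c and C57BL/6 MDI effects was a contrast of that model, with Benjamini-Hochberg adjustment over 22206 probe sets and a threshold of 0.05. A value after ± is an SE for an effect and an SD for a group level. Scripts were tested on simulated data. Figures used Python 3.11.15 and matplotlib 3.10.9.

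One gene symbol was given for 19572 probe sets and none for 2634. For 55 genes with several probe sets, the brightest over the 25 arrays stood for the gene. Named genes were those called, the 10 most positive and 10 most negative of those called in at least 2 of 3 alternatives on the spread, 9 airway genes, and up to 4 members of each of 24 lists with the smallest p. Of 763 genes in 42 lists, 65 were not analysed here. The members and lists were chosen with earlier results of these data known.

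Alternatives covered the arrays fitted, array weights, variance moderation, scaling, dim probe sets, low values, lots (blocks of consecutive records, which the labels do not call batches), replicate blocks and each array left out. Lot 1 held all 6 Balb/c arrays, so no second lot allowed the difference to be computed.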

Additional observations from a re-analysis of the deposited data

Results flagged for a closer look

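For 6 probe sets a direct test of the difference (limma) found that the MDI effects in Balb/c and C57BL/6 differed. The differences were 2.28 for Hal, -3.67 for Pla2g4c, 1.14 for TC1700001907.mm.2, -1.43 for G0s2, -2.51 for TC1400000453.mm.2 and 1.13 for Ubxn6.

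The 6 C57BL/6 Control arrays were checked for an outlying value in each of 34 probe sets, and 1 was found. The other groups were not checked in this way. Fam111a was at 9.00 in C57BL/6 Control 4, against 8.27 to 8.51 in the other controls. Chance marks about 1 in 20 such sets of values.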

How the results depend on the processing

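The count of probe sets whose effect differed, 6 as reported, was 2 with the 25 arrays alone, 183 with array weights, 69 with weights by group, 3 with dim probe sets left out and 13 with low values raised. Leaving out single arrays gave 3 to 10: 3 without Balb/c Control 3, Balb/c MDI Exposed 1 or 3, or C57BL/6 Control 3, and 10 without C57BL/6 Control 6. The count in Balb/c, 67, was 40 with the 25 arrays alone, 265 with array weights, 245 with weights by group, 32 with arrays scaled to the same spread, and 29 to 76 with single arrays left out (29 without Control 3, 35 without Control 2, 42 without MDI Exposed 1, 31 without MDI Exposed 2). The count in C57BL/6, 3225, was 2092 in lot 1 alone and 2278 to 3489 with single arrays left out. Over 21 pairs, same-numbered arrays had correlations of -0.308 to 0.271, with 4 over 0.1, so the numbers were not taken as pairs. With the replicate number as a block over 25 arrays the counts were 4 for the difference, 71 in Balb/c and 1411 in C57BL/6. With a block over the 12 arrays numbered 1 to 3 they were 2, 70 and 539. Of the 6 reported probe sets the block over 25 arrays kept Hal and Pla2g4c and ended TC1700001907.mm.2 (adjusted p = 0.197), G0s2 (0.205), TC1400000453.mm.2 (0.0942) and Ubxn6 (0.197). The block of 12 kept Pla2g4c alone, with 0.559, 0.638, 0.266 and 0.394 for those 4. The 25 arrays alone kept Hal and Pla2g4c and ended the same 4 (0.0925, 0.141, 0.16 and 0.107). Hal stayed called in 38 of 39 alternatives (adjusted p = 0.128 in the block of 12), Pla2g4c in 39 of 39, TC1700001907.mm.2 in 36 of 39, G0s2 in 31 of 40, TC1400000453.mm.2 in 30 of 40 and Ubxn6 in 28 of 40. Hal, Pla2g4c and TC1700001907.mm.2 were not tested with dim probe sets left out. Scaling to the same spread ended the calls of G0s2 (adjusted p = 0.0618) and Ubxn6 (0.345), lot 1 alone that of G0s2 (0.103), and lot as a fixed term that of TC1400000453.mm.2 (0.0503).

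Of 4498 gene values under the alternatives, 14 in 8 genes changed sign. With arrays scaled to the same spread these were Muc5ac (-0.0218), Retnla (-0.72), Lyz2 (-0.23), Gprc5a (-0.0026) and Clic5 (-0.0863), and with quantile normalization Muc5ac (-0.033). With single arrays left out Retnla ranged from -0.45 to 0.58: it was -0.44 without Balb/c Control 2, -0.06 without Balb/c MDI Exposed 1, -0.45 without C57BL/6 Control 2 and -0.08 without C57BL/6 Control 4. Cftr ranged from -0.17 (without Balb/c Control 2) to 0.0536 (without Balb/c MDI Exposed 3) and was 0.28 in the block of 12. Retn ranged from -2.21 to 0.0124 and Ucp1 from -3.19 to 0.86, the low ends without Balb/c Control 2 and the high ends without Balb/c Control 1. The cause of these changes was not tested. The block of 12, the fit without C57BL/6 MDI Exposed 1 and 5 and the effects in other mice were chosen after seeing the data. The median difference of all probe sets stayed between -0.07 and 0.05.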

Other observations

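Genes of MHC class I, which present peptides to cytotoxic T cells, are highly variable between the 2 strains and have near-identical copies that probes can share. This group was chosen after its values were seen. Of 25 measured, 18 had a positive difference (49.1% of all probe sets), with a median of 0.31. An unadjusted p under 0.05 was passed by 9, all higher (4.88% of all probe sets were higher). The adjusted threshold was passed by 0 with limma at equal weights and 5 with array weights (0.0135% and 0.644% of all probe sets were higher). Among those 5 was H2-Q5, named above for its large difference. H2-D1 rose by 1.12 in Balb/c (limma, adjusted p = 0.0352) and had 0.17 in C57BL/6, a difference of 0.94 (95% interval 0.33 to 1.55). H2-Q4 had a difference of 1.44 (95% interval 0.69 to 2.19) and H2-K1 of 0.61 (95% interval 0.15 to 1.06).

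Both arrays with contradictory labels came from C57BL/6 mice. Pla2g4c was at 5.57 and 8.08 on them, and Hal at 3.89 and 4.04.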
